A study of Mus musculus with 6 samples.

Results

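Hearts of E18.5 mouse embryos hold 10 transcripts of the negative feedback arm of MAP kinase signalling that are described here: the dual-specificity phosphatases *Dusp1*, *Dusp4*, *Dusp5* and *Dusp6*, the Sprouty genes *Spry1*, *Spry2* and *Spry4*, and the Sprouty-related genes *Spred1*, *Spred2* and *Spred3*. They were chosen by gene symbol as known inhibitors of MAP kinase signalling, with earlier results of these data known. They are 10 of the 13809 genes in the deposited count table. All 10 were among the 13804 genes tested. The libraries were made from total RNA of wildtype (WT) hearts (n = 3) and of pkm1-knockout (KO) hearts (n = 3) at embryonic day 18.5. The tissue is heart by its labels, and ventricle by the study's text. KO embryos are homozygous for a Cas9-made deletion in the *Pkm* exon that is used only by the *Pkm1* transcript, in every cell of the body, so a change in the heart may start outside it. The line came from zygotes of C57BL/6J and DBA/2 hybrid mice. The study calls the libraries biological replicates, and the labels do not name embryos or litters.

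MAP kinase cascades carry signals from growth factor receptors through Ras, Raf and Mek to the kinase ERK, and from stress to the kinases p38 and JNK. ERK activity switches on genes for its own inhibitors. Dusp proteins remove the activating phosphates from MAP kinases, Sprouty proteins act near the receptors and on the step from Ras to Raf, and Spred proteins recruit the Ras inhibitor neurofibromin. In the heart this loop limits growth signals from fibroblast growth factors, neuregulin and other ligands, and inherited changes in the Ras pathway are a known cause of heart malformation and hypertrophy.

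Library totals ranged from 15567624 to 19875546 counts, and 3 counts, taken as the limit of detection, are 0.153 to 0.197 CPM (a gene's counts scaled to equal library size with edgeR's TMM factors). *Pkm*, the targeted gene, averaged 1318 ± 41.1 CPM over the WT and 542 ± 10.1 CPM over the KO hearts (± SD of 3 libraries), in the direction the labels give. WT c stood apart: its mean squared difference over genes was 3.76 times that of counting noise from WT a and 3.24 times from WT b. It was 1.56 to 1.88 times for every other pair within a genotype. All 3 WT libraries had Y-linked transcripts (*Ddx3y* at 93.5 ± 6.45 CPM, SD, n = 3) and the KO libraries had 0 counts of *Ddx3y* and 2285 ± 47.6 CPM of *Xist* (± SD of 3 libraries), so sex and genotype cannot be told apart in any difference below. None of the 10 feedback genes lies on X or Y. Across the whole table, 15.7% of the tested genes were lower and 14.6% higher in KO hearts at an adjusted p under 0.05 (quasi-likelihood test of edgeR, Benjamini-Hochberg adjusted across the 13804 genes, the meaning of adjusted p throughout).

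In KO hearts 5 of the 10 feedback genes were lower (*Dusp1*, *Dusp5*, *Dusp6*, *Spry1* and *Spry4*), 1 was higher (*Dusp4*), and 4 did not pass the test (*Spry2*, *Spred1*, *Spred2* and *Spred3*). Of the lowered genes, *Dusp1*, *Spry1* and *Dusp5* changed by at least 1.5-fold, a change that 3.2% of all tested genes showed in that direction, and no member rose by as much, against 2.99% of all genes. The WT and KO libraries did not overlap for 7 of the 10 genes, 5 of them lower and 2 higher (*Dusp4* and *Spred2*), against 42.4% of all genes (21.4% lower, 21% higher). The median log2 fold change was -0.23 over the 10 genes and 0.0017 over all genes tested. In total the 10 transcripts summed to 404 to 411 CPM in the WT and 336 to 350 CPM in the KO libraries. The share of counts on the ribosomal RNA gene *Rn45s*, left over from depletion, was 2.21% to 2.48% in WT and 2.70% to 2.79% in KO libraries, without overlap. With *Rn45s* and the 10 most abundant genes left out of the scaling, 5 of the 10 feedback genes were again lower and 1 higher. These are bulk libraries, so fewer cells of a type and less RNA per cell cannot be told apart.

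**Figure D1:**
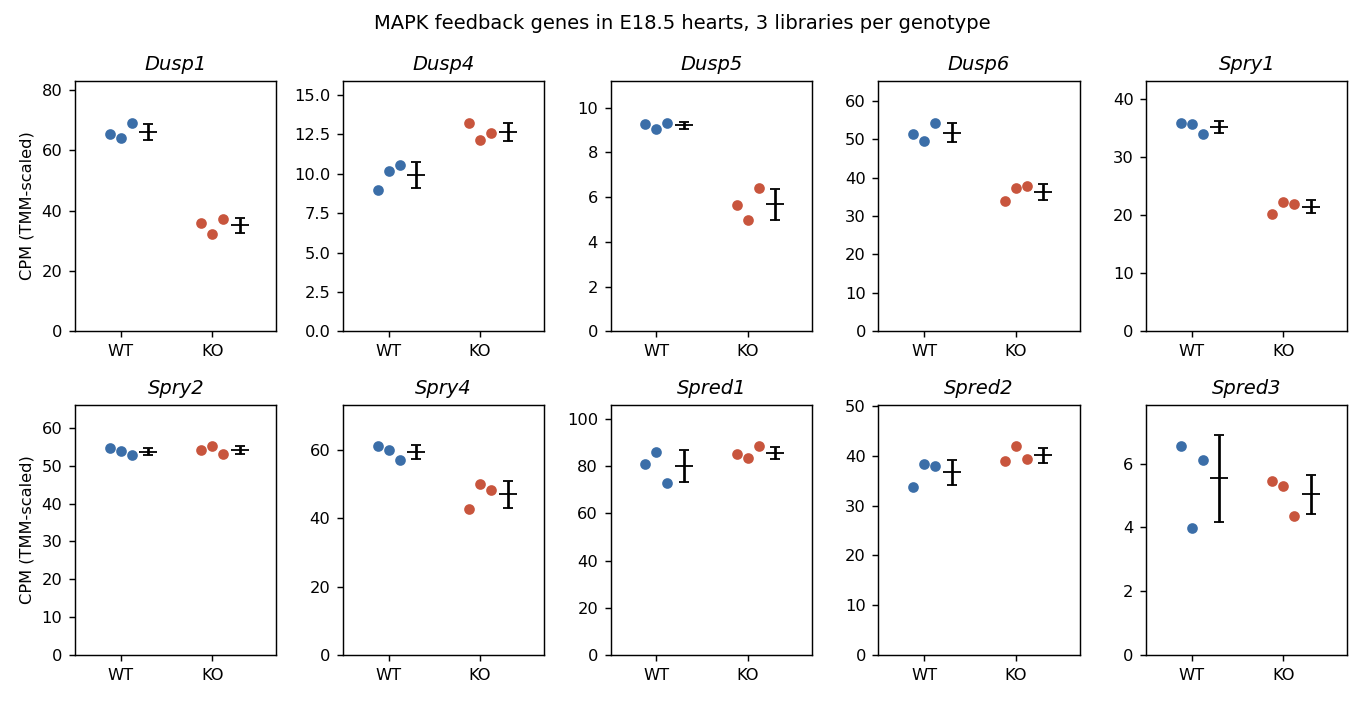
Level of each feedback gene in each library, in CPM after TMM scaling, with every vertical axis starting at 0. Points are the libraries a, b and c of each genotype from left to right, and the bar beside them is the mean and SD (n = 3). The WT and KO points lie apart for *Dusp1*, *Dusp5*, *Dusp6*, *Spry1*, *Spry4*, *Dusp4* and, narrowly, *Spred2*, and mix for *Spry2*, *Spred1* and *Spred3*.

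The sequences upstream of the lowered genes are shown because genes of this kind are switched on through their promoters by signalling, and *Spry2* is shown beside them as the Sprouty gene whose level did not pass the test. RefSeq promoters of GRCm38.p6, from 250 bases before to 50 bases after the gene start, were matched for 8 of the 10 genes; *Dusp4* and *Spry4* are named only. Capitals mark matches, on either strand, to a CCAAT box (CCAAT), the site of the factor NFY that the study is concerned with; a GC box (GGGCGG), bound by Sp factors; a cyclic AMP response element (CRE, TGACGTCA); or a CArG box, the binding site of serum response factor. An AP-1 site (TGAGTCA) and an ETS site (CCGGAAGT) were also searched, and these exact letters were in none of the 8 windows. Partial sites and variants with other letters were not searched, so their absence is not shown. *Dusp1* lies on the minus strand of chromosome 17 (chr17:26508423-26508722), *Dusp5* on the plus strand of chromosome 19 (chr19:53528895-53529194), *Dusp6* on the plus strand of chromosome 10 (chr10:99262981-99263280), *Spry1* on the plus strand of chromosome 3 (chr3:37639697-37639996) and *Spry2* on the minus strand of chromosome 14 (chr14:105896770-105897069). Each sequence reads 5′ to 3′ in the direction of its gene.
Dusp1: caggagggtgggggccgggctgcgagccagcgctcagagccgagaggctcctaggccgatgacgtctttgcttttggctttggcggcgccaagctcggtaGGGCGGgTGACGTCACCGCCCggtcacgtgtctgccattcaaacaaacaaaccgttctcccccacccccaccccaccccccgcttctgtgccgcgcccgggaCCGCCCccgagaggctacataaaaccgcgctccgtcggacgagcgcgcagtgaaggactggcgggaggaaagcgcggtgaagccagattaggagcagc
Dusp5: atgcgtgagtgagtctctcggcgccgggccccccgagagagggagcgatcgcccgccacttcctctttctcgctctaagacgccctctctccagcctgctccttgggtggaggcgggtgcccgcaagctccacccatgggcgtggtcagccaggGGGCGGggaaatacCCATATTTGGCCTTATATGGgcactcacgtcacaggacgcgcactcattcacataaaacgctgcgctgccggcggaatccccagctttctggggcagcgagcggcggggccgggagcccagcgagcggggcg
Dusp6: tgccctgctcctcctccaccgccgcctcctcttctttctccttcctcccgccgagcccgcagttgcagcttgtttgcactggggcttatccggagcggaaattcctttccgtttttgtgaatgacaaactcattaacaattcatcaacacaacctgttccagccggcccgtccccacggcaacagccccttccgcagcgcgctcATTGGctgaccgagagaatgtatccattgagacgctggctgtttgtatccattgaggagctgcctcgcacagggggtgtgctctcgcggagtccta
Spry1: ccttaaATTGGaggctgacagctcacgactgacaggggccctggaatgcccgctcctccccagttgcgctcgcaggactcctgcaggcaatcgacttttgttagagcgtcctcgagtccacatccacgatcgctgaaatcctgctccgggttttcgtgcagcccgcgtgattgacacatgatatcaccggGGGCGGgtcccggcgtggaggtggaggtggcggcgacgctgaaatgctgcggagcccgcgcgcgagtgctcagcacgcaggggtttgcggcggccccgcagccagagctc
Spry2: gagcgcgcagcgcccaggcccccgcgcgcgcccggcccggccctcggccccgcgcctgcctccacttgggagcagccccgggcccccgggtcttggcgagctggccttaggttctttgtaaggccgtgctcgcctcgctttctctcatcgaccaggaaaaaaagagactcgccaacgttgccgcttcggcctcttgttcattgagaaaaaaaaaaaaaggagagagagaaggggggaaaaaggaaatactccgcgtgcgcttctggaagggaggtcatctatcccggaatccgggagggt

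*Dusp1* held a CRE 143 bases before its start, a motif in 1.79% of the 32851 promoters searched. It sat between a GC box 150 bases and another 135 bases before the start, without overlap, and a further GC box lay 48 bases before it. *Dusp5* held a pair of CArG boxes that touch each other, 82 and 72 bases before the start, and a GC box at 96 bases; 1.63% of all promoters hold a CArG box. A CCAAT box was found in *Dusp6* (46 bases before the start), *Spry1* (at position -244 from it) and *Spred2* (at position -2), which is 3 of 8 windows against 37.4% of all promoters. A GC box was found in 6 of the 8 windows and in 35.7% of all promoters. The 8 windows were 55.0% to 72.3% G or C, against a median of 52.7% over all promoters. The share of GC boxes among promoters of like G and C content was not computed. *Spry2* held none of the 6 motifs. *Spred1*, *Spred2* and *Spred3*, which did not pass the test either and are not printed, held 3, 1 and 3 GC boxes. A link between motifs and changes was not tested. AP-1 sites occur in 5.2% and ETS sites in 3.89% of all promoters. A match here describes the letters only.

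**Figure D2:**
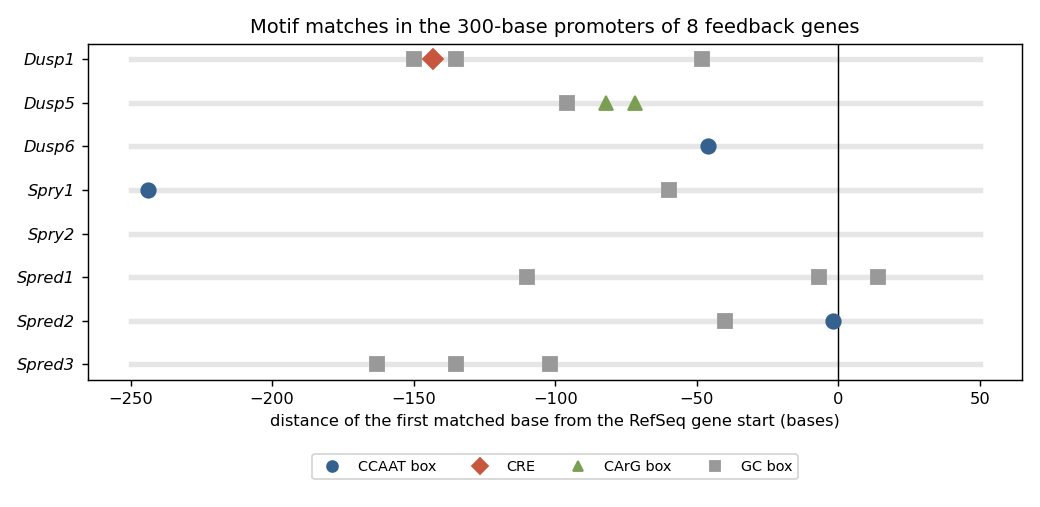
Position of each motif match in the promoters of the 8 feedback genes with a RefSeq entry, as the distance in bases from the gene start (line at 0) to the first matched base. The full CRE (TGACGTCA) occurs in *Dusp1* alone and the CArG boxes in *Dusp5* alone among these 8, while GC boxes (grey squares) occur in 6 of them. Partial sites were not searched.

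Among the phosphatases, *Dusp1*, the stress- and growth factor-inducible nuclear phosphatase that acts on p38, JNK and ERK, changed most. It lay at 65.5, 64.0 and 69.2 CPM in WT a, b and c and at 35.9, 32.4 and 37.2 CPM in KO a, b and c. Every WT library was above every KO library, the lowest WT value being 1.72 times the highest KO value. The mean fell from 66.2 ± 2.65 to 35.2 ± 2.51 CPM (± SD of 3 libraries), a log2 fold change of -0.91 (95% interval -1.02 to -0.79, standard error 0.0572) with an adjusted p of 1.28e-12 from edgeR. The size of this change was larger than that of 97.1% of all genes tested. *Dusp1* shares 11 exonic bases with *Ergic1* on the opposite strand, whose log2 fold change was 0.089 (edgeR, adjusted p = 0.121).

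*Dusp5*, a nuclear phosphatase specific for ERK, was among the least abundant members. It was at 9.27, 9.03 and 9.33 CPM in the WT and at 5.67, 4.99 and 6.39 CPM in the KO libraries, in the same order of letters. The WT libraries lay close together, above all KO libraries, and the KO libraries spread more. The mean fell from 9.21 ± 0.156 to 5.68 ± 0.699 CPM (± SD of 3 libraries), with a log2 fold change of -0.69 (95% interval -0.94 to -0.44) and an adjusted p of 9.14e-05 from edgeR. Its exons overlap 547 bases of an antisense transcript, and the strand setting of the counting is not given in the sources used here, so reads from the pair may have been joined.

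*Dusp6*, the cytoplasmic phosphatase that is specific for ERK and a common readout of FGF signalling, lies on chromosome 10 from 99263231 to 99267489 (GRCm38, GENCODE M21, as for the gene positions that follow). Its values were 51.4, 49.6 and 54.3 CPM among WT and 33.9, 37.2 and 37.7 CPM among KO libraries. The groups did not overlap, with the lowest WT library 1.31 times the highest KO library. The log2 fold change was -0.51 (95% interval -0.63 to -0.39, edgeR, adjusted p = 1.40e-07), from 51.8 ± 2.41 to 36.3 ± 2.10 CPM (± SD of 3 libraries).

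*Dusp4*, a nuclear phosphatase for ERK and JNK, went the other way. It lies on chromosome 8 from 34807297 to 34819894 and was at 8.98, 10.2 and 10.6 CPM in the WT libraries against 13.2, 12.1 and 12.6 CPM in the KO libraries. All KO libraries were higher, the lowest by 1.15 times over the highest WT library. The mean rose from 9.90 ± 0.830 to 12.7 ± 0.562 CPM (± SD of 3 libraries), a log2 fold change of 0.36 (95% interval 0.16 to 0.56, edgeR, adjusted p = 0.00688). This call was the nearest to the threshold of the 6: its adjusted p reached 0.0449 without WT a and 0.0426 without KO a (edgeR).

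Counted within each library, and so free of any scaling between libraries, *Dusp4* made up 6.64% to 7.65% of the reads on these 4 phosphatases in WT and 13.4% to 14.9% in KO hearts. The share of *Dusp1* was 48.2% to 48.5% in WT and 37.4% to 40.5% in KO. The share of *Dusp6* was 37.3% to 38.02% in WT and 38.2% to 42.9% in KO, and that of *Dusp5* overlapped between the genotypes (6.50% to 6.86% and 5.75% to 6.80%). The 4 genes together summed to 137 ± 5.59 CPM in WT and to 89.8 ± 3.76 CPM in KO hearts (± SD of 3 libraries). A share also rises when the other members fall. In the fit *Dusp4* itself rose 1.28-fold, and *Dusp6* fell although its share rose. With 3 libraries against 3, an exact permutation test of a single share cannot go below p = 0.10, so none is given.

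**Figure D3:**
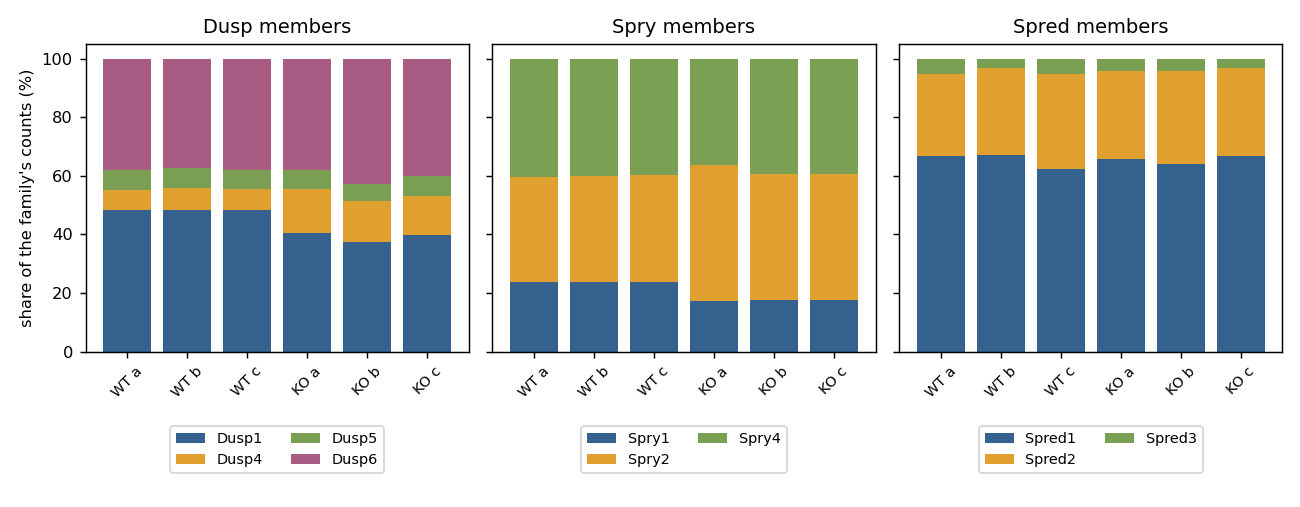
Share of each family's counts held by each member, in percent, in the 6 libraries. Within the Dusp members, *Dusp4* (second segment) is wider in every KO library and *Dusp1* (lowest segment) narrower. Within the Spry members, *Spry1* (lowest segment) is narrower and *Spry2* wider in every KO library, and the Spred shares overlap.

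Of the Sprouty genes, *Spry1*, which restrains receptor tyrosine kinase signalling, fell most. It lies on chromosome 3 from 37639947 to 37644598. The WT libraries held 36.0, 35.8 and 34.1 CPM and the KO libraries 20.3, 22.3 and 21.9 CPM. The groups were well separated, with the lowest WT library 1.53 times the highest KO library. The mean went from 35.3 ± 1.04 to 21.5 ± 1.06 CPM (± SD of 3 libraries), a log2 fold change of -0.72 (95% interval -0.85 to -0.58, edgeR, adjusted p = 2.38e-09). An unclassified transcript on the opposite strand overlaps 710 of its exonic bases.

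*Spry4*, another Sprouty protein induced by FGF and VEGF signals, was at 61.1, 60.1 and 57.1 CPM among WT and 42.7, 50.2 and 48.5 CPM among KO libraries. KO a was the lowest library, and the highest KO library was still below the lowest WT library. The log2 fold change was -0.34 (95% interval -0.46 to -0.22, edgeR, adjusted p = 5.63e-05), from 59.4 ± 2.09 to 47.1 ± 3.92 CPM (± SD of 3 libraries).

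*Spry2*, a widely expressed Sprouty protein that also binds the ubiquitin ligase Cbl, lies on chromosome 14 from 105891947 to 105896819. It held 54.6, 53.9 and 52.8 CPM among WT and 54.3, 55.1 and 53.2 CPM among KO libraries. The libraries of the genotypes interleave. The log2 fold change was 0.010 with a 95% interval of -0.092 to 0.11, which bounds any change to about that size (edgeR, adjusted p = 0.902), and its sign turned without WT c (-0.0042) and without KO b (-0.0019). The intervals of *Spry1* and *Spry4* lie wholly below that of *Spry2*. As a share of the reads on the 3 Sprouty genes, *Spry2* held 36.0% to 36.6% in WT and 43.0% to 46.3% in KO hearts. This share rose as *Spry1* and *Spry4* fell, without a called change of *Spry2* itself. *Spry1* held 23.7% to 23.9% in WT and 17.3% to 17.7% in KO hearts.

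The Spred genes encode membrane-bound inhibitors of the step from Ras to Raf. None passed the test: 0 of 3 had an adjusted p under 0.05 with edgeR's quasi-likelihood test, DESeq2, edgeR's exact test or voom. Before adjustment, at p under 0.05, the exact test called 1 of them (higher) and the other tools 0. *Spred1* (chromosome 2, 117121374 to 117182279) was at 81.1, 86.1 and 72.7 CPM among WT and 85.04, 83.5 and 88.4 CPM among KO libraries. WT c was the lowest of these, and WT b lay above KO a and KO b. Its log2 fold change was 0.095 (95% interval -0.0096 to 0.20, edgeR, adjusted p = 0.162), and without WT b it was 0.15 and passed the threshold (edgeR, adjusted p = 0.0486).

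*Spred2* (chromosome 11, 19924375 to 20024026) held 33.8, 38.4 and 37.97 CPM among WT and 39.1, 41.9 and 39.4 CPM among KO libraries. The groups did not overlap, by a margin of 1.02 times; 21% of all tested genes were separated in this direction. Its log2 fold change was 0.13 (95% interval -0.00019 to 0.25, edgeR, adjusted p = 0.123). *Spred3* (chromosome 7, 29158829 to 29170411), the least abundant member, was at 6.54, 3.98 and 6.11 CPM among WT and 5.46, 5.30 and 4.35 CPM among KO libraries. WT b was the lowest and WT a the highest library, and the log2 fold change of -0.12 had the widest interval of the 10, from -0.47 to 0.22 (edgeR, adjusted p = 0.613). It shares 202 exonic bases with *Ggn* on the opposite strand.

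**Figure D4:**
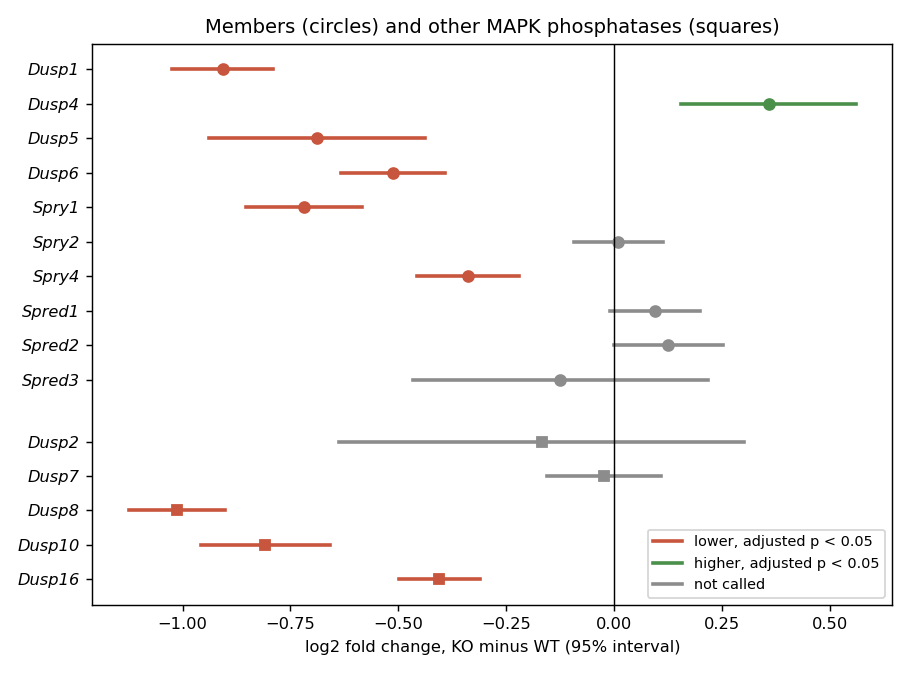
log2 fold change of KO against WT with its 95% interval from edgeR's quasi-likelihood fit, for the 10 feedback genes (circles) and the 5 further MAPK phosphatases tested (squares). *Dusp4* alone lies to the right of 0 past the threshold, and the intervals of *Spry2* and of the Spred genes reach across 0.

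Levels were compared between members per kilobase of exon (CPM per kb of the union of GENCODE exons). In WT hearts *Spry2* was highest at 25.8 ± 0.450, followed by *Dusp1* at 20.01 ± 0.800 and *Dusp6* at 16.5 ± 0.771 (CPM per kb, SD, n = 3). *Spry4* (12.5 ± 0.439), *Spry1* (12.1 ± 0.358) and *Spred1* (11.8 ± 0.996 CPM per kb) overlapped with their neighbours in this order. *Spred2* followed at 7.95 ± 0.546, then *Dusp5* at 3.72 ± 0.0633 and *Dusp4* at 3.61 ± 0.303, whose ranges overlapped, and *Spred3* at 0.892 ± 0.221 CPM per kb. In KO hearts *Spry2* was still highest at 26.0 ± 0.466 and *Spred3* lowest at 0.810 ± 0.0968 CPM per kb. *Spred1* stood second there (12.6 ± 0.370), *Dusp1* stood at 10.6 ± 0.758 with a range that overlapped those of *Dusp6* and *Spry4*, and *Dusp4* at 4.62 ± 0.205 lay above *Dusp5* at 2.30 ± 0.283 CPM per kb, without overlap. The order depends on the length used: over the longest transcript, *Dusp1* was at 28.6 CPM per kb in WT and stood above *Spry2*.

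Most of the feedback genes have few exons. The longest annotated transcript has 2 exons for each Sprouty gene, 3 for *Dusp1* and *Dusp6*, 4 for *Dusp4* and *Dusp5*, and 6 or 7 for the Spred genes, against a median of 8 over the genes tested. AU-rich elements, in which the pentamer ATTTA (as DNA) recurs, mark many short-lived transcripts. The 3′ UTR of *Dusp1* holds 4 such pentamers in 690 bases, or 5.80 per kb, more than 97.0% of the 12312 tested genes with a 3′ UTR of at least 100 bases. The other 9 members hold 0.840 (*Dusp6*) to 2.77 (*Spred1*) per kb, around the median of 1.27. Of the lowered genes, *Dusp5* (0.90) and *Dusp6* were below that median, and *Dusp1*, *Spry1* (1.91) and *Spry4* (1.97) above it. *Dusp4*, which rose, was above it too (1.80). Of the genes without a call, *Spry2* (2.34), *Spred1* and *Spred2* (1.55) were above it and *Spred3* (1.11) below. A link of these pentamers to the changes was not tested.

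Of the further MAPK phosphatases and *Spry3*, 5 of 7 were tested, *Dusp9* and *Spry3* not being among the tested genes. *Dusp8*, *Dusp10* and *Dusp16*, phosphatases that act mainly on JNK and p38, were lower in KO hearts, and *Dusp2* and *Dusp7* did not pass the test. *Dusp8* was at 61.7, 62.2 and 65.9 CPM among WT and 31.2, 30.9 and 31.8 CPM among KO libraries, a log2 fold change of -1.01 (edgeR, adjusted p = 3.79e-14), larger in size than that of any of the 10 feedback genes. *Dusp10* had a log2 fold change of -0.81 and *Dusp16* of -0.41 (edgeR, adjusted p = 1.86e-09 and 1.26e-07). The median of the 5 was -0.41, and 3 of the 5 were lower, against 15.7% of all genes tested.

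Upstream, calls among ligands and receptors were in both directions, to be read against the 15.7% lower and 14.6% higher of all genes tested. Of 17 growth factors tested, 3 were lower and 4 higher, with a median log2 fold change of 0.030. *Vegfa*, the main growth factor of blood vessels, rose from 363 ± 9.32 to 536 ± 4.28 CPM (± SD of 3 libraries), a log2 fold change of 0.56 (edgeR, adjusted p = 1.21e-14). The neuregulin gene *Nrg1* (0.60), *Pdgfc* (0.52) and *Fgf9* (0.36) were also higher on the log2 scale. The vessel-stabilizing ligand *Angpt1* (-0.49), the EGF receptor ligand *Hbegf* (-0.44) and *Igf1* (-0.24) fell on the log2 scale. Of 17 receptor tyrosine kinases, 1 was lower and 3 higher, with a median of 0.0015. The VEGF receptor *Flt1* (log2 fold change 0.21), the neuregulin receptor *Erbb3* (0.32) and *Fgfr2* (0.29) rose, and *Fgfr1* fell by 0.16 on the log2 scale with overlapping groups (edgeR, adjusted p = 0.0336).

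In the cascade that these genes restrain, no log2 fold change was as large as those of the lowered feedback genes, which are picked by their call. Of 25 genes from *Grb2* to *Rps6ka3*, 3 were lower and 3 higher, against 30.3% of all genes tested that were called in either direction. Log2 fold changes in the cascade ran from -0.22 to 0.26 with a median of -0.013. Those of the 4 feedback genes without a call (-0.12 to 0.13) lay within this range. *Map2k1*, which encodes Mek1, was higher (log2 fold change 0.26, edgeR, adjusted p = 1.42e-04), as was the Ras inhibitor *Rasa2* (0.22), while the adaptor *Grb2* (-0.16) and *Mapk3* (-0.16), which encodes Erk1, were lower. In the p38 and JNK cascade 2 of 16 genes were called, *Map3k1* (0.32) and the p38 kinase gene *Mapk14* (0.21), both higher. These are transcript levels, and kinase activity was not analysed here.

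Among 13 other genes known to rise with ERK signalling, 6 were lower and 2 higher, with a median log2 fold change of -0.18. Of all genes tested, 15.7% were lower and 14.6% higher. *Myc* fell from 54.3 ± 2.46 to 23.3 ± 0.937 CPM (± SD of 3 libraries), a log2 fold change of -1.22 (edgeR, adjusted p = 6.96e-15). *Phlda1* (-0.71), *Ier3* (-0.62) and *Ccnd1* (-0.16) also fell. The remaining lowered genes were *Epha2* and *Etv5*, and the higher ones were *Epha4* and *Ets2*. *Etv1*, *Etv4*, *Il17rd*, *Lif* and *Plaur* did not pass the test. Of the immediate early genes, transcribed within minutes of a stimulus to the cell, 16 of 17 were lower. The fall was at least 1.5-fold for 14 of them, against 3.2% of all genes tested. The median log2 fold change of this list was -1.58. *Btg2* (-2.54), *Nr4a1* (-2.47), *Egr1* (-2.57) and *Fos* (-4.02) had the smallest adjusted p of this list, and *Srf*, the serum response factor gene, did not pass (0.051). The summed level of the 17 genes was 1441 to 1560 CPM in the WT and 625 to 644 CPM in the KO libraries. This list was chosen as genes induced by ERK and by handling of tissue, and the labels do not say how the hearts were handled. The part of handling, and that of these genes in the changes of the feedback genes, was not tested.

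**Figure D5:**
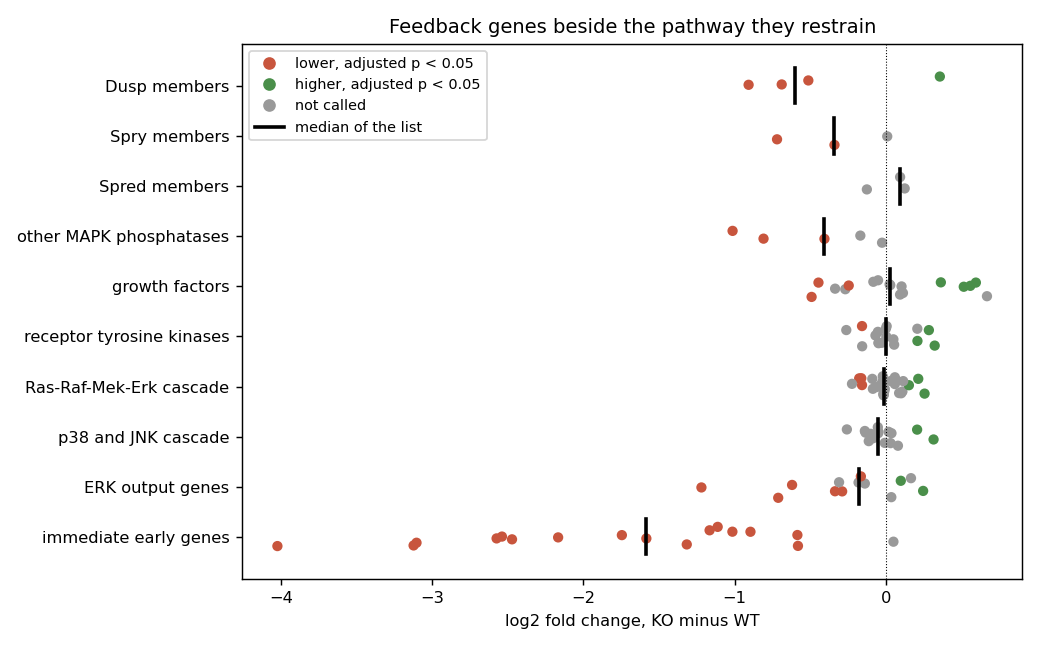
log2 fold change of KO against WT for every tested gene of each list, coloured by its call, with the median of the list as a black bar. The cascade, receptor and growth factor lists centre near 0. The lowered feedback genes lie between -0.34 and -0.91, and those without a call between -0.12 and 0.13. The immediate early genes reach -4.02.

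Of 45 tested markers of the cell types that the tissue could hold, 14 were lower and 12 higher, with log2 fold changes from -0.78 to 1.10. Of all genes tested, 15.7% were lower and 14.6% higher. The summed cardiomyocyte markers were at 129102 to 132175 CPM among WT and 122785 to 124091 among KO libraries, with 4 of 6 lower and 2 higher. In DESeq2 and in edgeR's exact test 3 of these were lower and 0 higher (1 higher at an unadjusted p under 0.05 in each). Endothelial markers summed to 841 to 855 CPM among WT and 802 to 807 in KO (3 of 6 lower, 1 higher), fibroblast markers to 3224 to 3271 and 2988 to 3041 CPM (4 of 6 lower, 1 in DESeq2), and smooth muscle markers to 773 to 814 and 773 to 787 CPM (2 of 6 lower, 1 higher). Epicardial markers summed to 124 to 127 CPM among WT and 141 to 155 CPM in KO (3 of 6 higher). The 5 tested atrial markers summed to 593 to 599 CPM among WT and 1004 to 1028 CPM in KO. Of these, *Nppa*, *Myl4* and *Myl7* were higher, while *Nr2f2* (log2 fold change 0.059) and *Stard10* (-0.086) did not pass the test. Immune markers were at 33.2 to 36.3 and 32.4 to 39.2 CPM (1 of 6 lower), the 2 of 6 erythroid markers tested, which leave out the globin genes, at 27.2 to 28.0 and 31.0 to 37.5 CPM (1 higher), and the 2 of 6 glial markers tested at 21.5 to 22.9 and 25.9 to 28.0 CPM (1 higher, *Erbb3*, which the receptor list also holds). The part of any of these in the feedback genes was not tested.

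Profiles across the 6 libraries were compared as the root mean square difference of log2 CPM after centring each gene, over the 13492 other genes that averaged 1 CPM or more, for the 3 feedback genes with the largest change. Nearest to *Dusp1* were the kinase gene *Pim1* (difference 0.019) and *Socs2*, a suppressor of cytokine signalling (0.051), with log2 fold changes of -0.92 and -0.91. Nearest to *Spry1* were *Cyp51*, an enzyme of sterol synthesis (0.034), and *Tob2*, an antiproliferative factor (0.044). Nearest to *Dusp5* were *Sgk1*, a kinase induced by serum and glucocorticoids (0.055), and the sterol synthesis enzyme *Lss* (0.068). Since the split between the genotypes makes up most of each profile, nearness here mainly says that the log2 fold changes were alike.

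Without WT c, the library that stood apart, the calls of the 6 feedback genes held. Their log2 fold changes were then -0.88 for *Dusp1*, -0.68 for *Dusp5*, -0.48 for *Dusp6*, 0.40 for *Dusp4*, -0.74 for *Spry1* and -0.37 for *Spry4*.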

How the data were processed

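Total RNA of E18.5 hearts was depleted of ribosomal RNA and sequenced in paired ends, in 3 WT and 3 KO libraries. The authors deposited 1 table of raw counts per gene for the 6 libraries, beside columns of their own edgeR comparison (log2 fold change, log CPM, p-value and FDR), which were not used. The submitters' processing notes name cutadapt 1.18, HISAT2, StringTie and mm10; the counting program and its strand setting are not given in the sources used here. The table holds no gene with fewer than 59 summed counts. Its columns give the genotype only, so the libraries of each genotype were called a, b and c in column order.

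Counts were fitted with edgeR 4.0.16 (R 4.3.3): TMM scaling, filterByExpr, and the quasi-likelihood test on genotype, with Benjamini-Hochberg adjustment over 13804 genes and a threshold of 0.05. Fold changes, intervals and CPM come from this fit, and SDs are over 3 libraries. No pair of libraries of 1 genotype differed by less than counting noise, so none were counted as 1 sample. Floors cover counting error only. The fit was checked on simulated counts. Alternatives were RLE scaling, TMM without *Rn45s* and the 10 most abundant genes, no filter, at least 10 counts in every library, no X or Y genes, DESeq2 1.42.0, edgeR's exact test, limma 3.58.1 with voom, and each library left out.

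The members and gene lists were chosen with earlier results of these data known. Named genes are all members, *Pkm*, and from each pathway list up to 4 called genes with the smallest adjusted p. Further genes were named after their values were seen (*Dusp2*, *Dusp7*, *Nrg1*, *Pdgfc*, *Fgf9*, *Epha2*, *Etv5*, *Epha4*, *Ets2*, *Etv1*, *Etv4*, *Il17rd*, *Lif*, *Plaur*, *Srf*, *Nppa*, *Myl4*, *Myl7*, *Nr2f2*, *Stard10*). For the 3 members with the largest change, the 2 nearest profiles were named. Lengths and gene structures came from GENCODE M21 and promoters from RefSeq (GRCm38.p6, the build of mm10).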

Additional observations from a re-analysis of the deposited data

How the results depend on the processing

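The calls of *Dusp1*, *Dusp5*, *Dusp6*, *Spry1* and *Spry4* (lower) and of *Dusp4* (higher) held in all 14 alternatives, with log2 fold changes of -0.95 to -0.85, -0.78 to -0.61, -0.55 to -0.46, -0.74 to -0.68, -0.38 to -0.27 and 0.29 to 0.40. *Pkm* held too, at -1.30 to -1.26. Adjusted p for *Dusp4* ranged from 0.0016 to 0.0449. The sign turned only for genes without a call: *Spry2*, at -0.0042 without WT c and -0.0019 without KO b (0.0100 with all libraries, -0.0042 to 0.0236 over the libraries left out), and *Spred3*, at 0.0212 without WT a (-0.34 to 0.0212). Members called higher numbered 1 to 2 with a library left out, *Spred1* being added without WT b. Over all genes, 1704 to 2306 were lower and 1479 to 2013 higher with a library left out, and 1639 lower and 1362 higher in DESeq2.

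Small list counts moved. Receptor tyrosine kinases lower numbered 0 in DESeq2 and 0 to 1 with a library left out (0 without WT b, KO a or KO b). Cascade genes lower numbered 1 in DESeq2 and 2 without each library, and higher 1 to 3 (1 without WT c or KO c). p38 and JNK genes lower numbered 0 to 1 (1 without WT c or KO b), ERK output genes higher 1 in DESeq2 and 0 to 2 (0 without WT a or KO b; 1 without WT b, KO a or KO c), and immediate early genes higher 0 to 1 (1 without WT c). Markers of the cell types lower numbered 9 in DESeq2 and 10 to 14 with a library left out. The causes were not tested. The WT levels per length of the 10 members summed to 115 CPM per kb, and to 128 with the longest transcript, by construction of the length; *Dusp6* (18.5), *Spry1* (12.7), *Spred1* (13.3) and *Spred3* (1.37) moved with *Dusp1*.

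No paired analysis was possible because replicate numbers are absent from the column names of the count table. Depth limits *Spred3* most, at 552 summed counts. With 3 libraries a genotype, p-values set the difference between genotypes against the spread between these libraries. For each gene the fit estimates that spread partly from the other genes.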
